A study of Mus musculus with 5 samples.

Results

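The genes described here are 10 regulators of the first gap phase (G1) of the cell cycle: the D cyclins Ccnd1 and Ccnd3, the cyclin-dependent kinases Cdk4 and Cdk6, the kinase inhibitors Cdkn1b, Cdkn1c, Cdkn2c and Cdkn2d, and the retinoblastoma family genes Rb1 and Rbl2. They were chosen by name from the 24399 genes of the count table, for their role in stem cell quiescence. Earlier results of these data were known when they were chosen. All 10 were present, and all 10 passed the filter on low counts that left 14565 genes for testing. Messenger RNA was sequenced from LSK cells, the fraction of bone marrow without lineage markers and with Sca1 and cKit, in which blood stem cells and early progenitors are found. The cells came from C57BL/6 mice aged 12 months of a germ line knockout colony, with no treatment. There were 3 libraries titled KO, whose genotype field gives a heterozygous knockout genotype and which are called KO-labelled here, and 2 wild-type libraries titled WT. The titles and the genotype field thus differ for the KO-labelled libraries. A germ line deletion affects every cell of the animal, so the comparison is not limited to the sorted cells.

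Cells leave quiescence when D cyclins bind CDK4 or CDK6 and the active kinases phosphorylate the retinoblastoma proteins. Unphosphorylated retinoblastoma proteins hold E2F transcription factors in check, and their release turns on the genes of DNA replication. Inhibitors of the INK4 class (Cdkn2c and Cdkn2d) bind CDK4 and CDK6 directly, and inhibitors of the CIP/KIP class (Cdkn1b and Cdkn1c) bind cyclin-kinase complexes more broadly. In mouse bone marrow the CIP/KIP inhibitor p57, the product of Cdkn1c, is known for its part in keeping stem cells quiescent.

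Total counts, with the most abundant transcript row kept per gene, were 36060320 to 39691066 in KO-labelled and 29964556 to 38674416 in WT libraries. Levels are CPM, counts scaled to a common library total after adjustment by TMM, the trimmed mean scaling of edgeR. A floor of 3 counts equalled 0.076 to 0.1 CPM, and it allows for counting error only, not for differences between libraries. Summed CPM of 10 stem and progenitor markers was 4417 to 4631 in KO-labelled and 4515 to 4521 in WT libraries. Of these 10, 0 rose and 0 fell. All KO-labelled libraries were above both WT libraries in 2 of them, Ly6a and Hlf, and below both in 2, Kit and Slamf1. Over all tested genes these shares were 16.5% and 16.3%. The sum was 155 to 182 CPM in KO-labelled and 182 to 186 CPM in WT libraries for 8 markers of T and NK cells. Of these 8, 0 rose and 1 fell. Granulocyte and monocyte markers summed to 3202 to 3983 CPM in KO-labelled and 4612 to 4938 CPM in WT libraries. These sums therefore do not show how pure the sorted cells were. Whether each library is a separate mouse is not stated in the labels; the p-values therefore rest on differences among these 5 libraries, and part of those may be technical. Adjusted p-values are those of edgeR's two-sided quasi-likelihood test with Benjamini-Hochberg adjustment over all 14565 genes, and a gene is said to have changed where this is under 0.05. By that rule 1.97% of all tested genes changed: 0.79% rose and 1.18% fell.

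Of the 10 genes, 1 changed: Ccnd1, the gene of cyclin D1, rose in the KO-labelled libraries, and none fell. It stood at 158.6, 140.4 and 140.2 CPM in KO-labelled libraries 1 to 3, against 71.9 and 94.1 CPM in WT libraries 1 and 2. All KO-labelled libraries were above both WT libraries, and the gap between the groups was wider than the spread within either. The mean was 146 ± 10.6 CPM in KO-labelled (SD, n = 3) and 83.0 ± 15.7 CPM in WT libraries (SD, n = 2), a 1.76-fold difference with a 95% interval of 1.47 to 2.11 and an adjusted p = 0.00417 by edgeR. On the log2 scale the difference was 0.82 ± 0.12 (SE), and by p-value Ccnd1 ranked 48 among all tested genes. The call was lost without WT library 1, the library with the lowest Ccnd1 (log2 fold change 0.64, adjusted p = 0.206), and held in the other 15 of 16 alternative settings. In sorted cells measured in bulk, more cells of a type that uses a gene and more RNA of it per cell cannot be told apart.

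**Figure D1:**
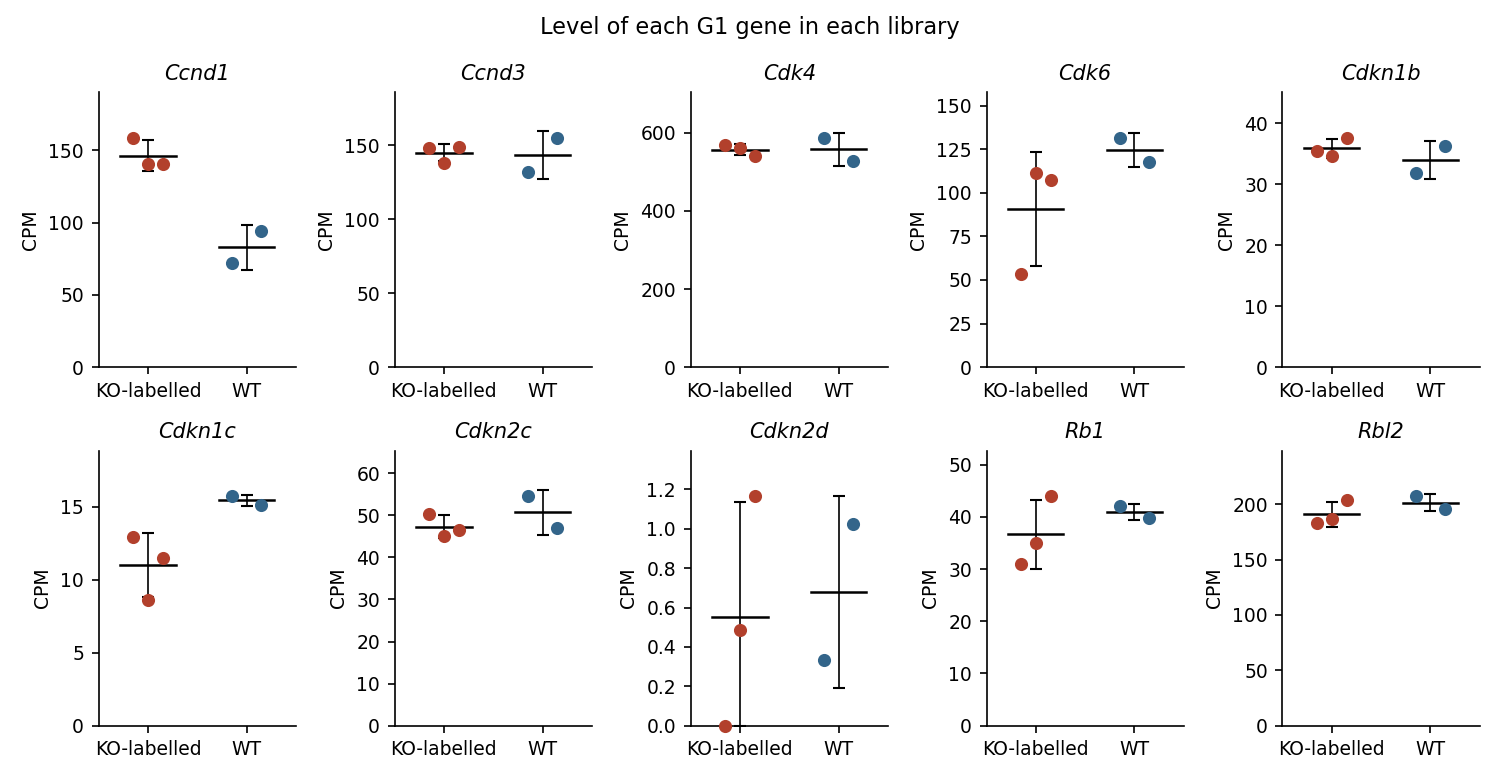
CPM of each of the 10 genes in each library, with KO-labelled libraries at the left and WT libraries at the right of each panel and points in order of library number; horizontal lines are means and bars are 1 SD (n = 3 and n = 2, drawn down to 0 at most), and each axis starts at 0. Ccnd1 is the 1 gene that passed the test, with KO-labelled libraries at 140.2 to 158.6 and WT libraries at 71.9 and 94.1 CPM.

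Ccnd3, the gene of cyclin D3 and the other D cyclin of the list, had nearly the same level in both groups. It stood at 148.0, 138.2 and 148.9 CPM in KO-labelled and 132.2 and 155.1 CPM in WT libraries. The WT libraries enclosed all KO-labelled ones. The log2 fold change was 0.014 ± 0.095 (SE), the 95% interval of the fold was 0.875 to 1.16, and the adjusted p by edgeR was 0.973. The upper end of this interval lay below the lower end of that of Ccnd1, 1.47. The ratio of Ccnd1 to Ccnd3 CPM within a library was 1.07, 1.02 and 0.941 in KO-labelled and 0.544 and 0.606 in WT libraries. These ratios did not overlap between the groups. With Ccnd3 nearly level, they restate the Ccnd1 difference and are not a further result. They were not tested: of 3 against 2 libraries there are 10 arrangements, and an exact two-sided permutation test that doubles the smaller tail cannot go below p = 0.2.

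Ccnd2, the gene of cyclin D2, belongs to the wider list of G1 regulators described below, and it rose as well. It stood at 580.4, 613.1 and 554.3 CPM in KO-labelled and 366.5 and 401.2 CPM in WT libraries, so that the groups did not overlap. The fold was 1.52, with a 95% interval of 1.34 to 1.72 (adjusted p = 0.00305 by edgeR). It lost its call without WT library 1 (adjusted p = 0.206) and without WT library 2 (adjusted p = 0.0799), with log2 fold changes of 0.54 and 0.67 there. Levels of different genes can be compared only per length of transcript, here as CPM per kb with transcript lengths from GENCODE, which may differ from those the authors counted over. Per kb, the 3 D cyclins together summed to 204, 200 and 196 in KO-labelled and 140 and 162 in WT libraries. Of this sum Ccnd1 made up 20.8%, 18.8% and 19.2% in KO-labelled and 13.8% and 15.5% in WT libraries. Ccnd2 made up 44.9%, 48.5% and 44.8% in KO-labelled and 41.5% and 39.1% in WT libraries. Ccnd3 made up 34.3%, 32.7% and 36.0% in KO-labelled and 44.8% and 45.3% in WT libraries. Ccnd2 was thus the most abundant D cyclin per kb in every KO-labelled library, and Ccnd3 in both WT libraries. These shares depend on the lengths used. They are parts of one sum, so the lower share of Ccnd3 in KO-labelled libraries is not a lower level of Ccnd3.

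**Figure D2:**
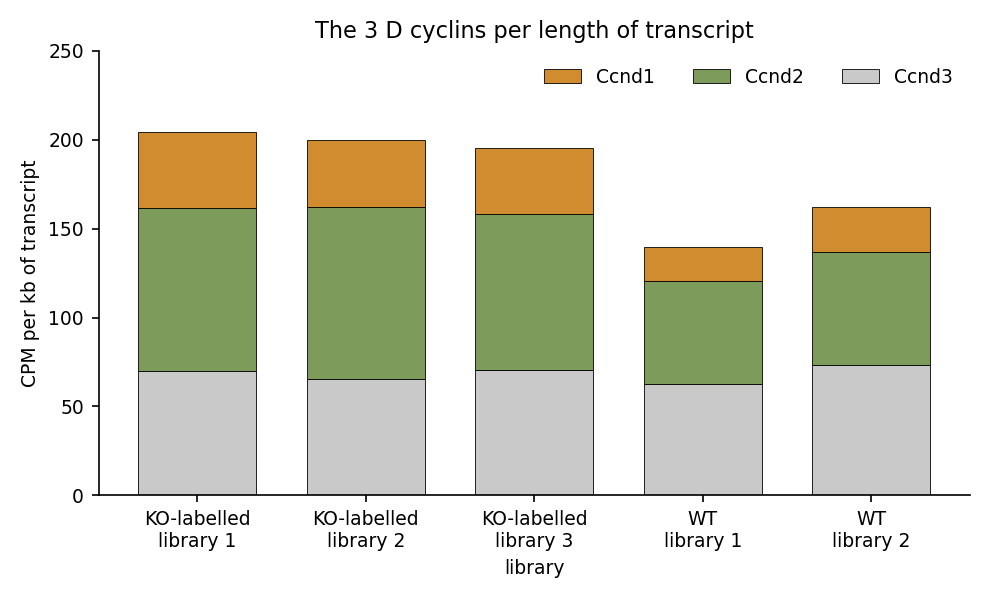
CPM per kb of transcript of Ccnd1, Ccnd2 and Ccnd3, stacked for each library, with the 3 KO-labelled libraries left of the 2 WT libraries and no error bars, as each bar is 1 library. The stacks reach 196 to 204 in KO-labelled and 140 and 162 in WT libraries, and the Ccnd3 segments are of like height in both groups.

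Markers of other cell types also differed between the groups in which Ccnd1 and Ccnd2 rose, some higher and some lower. Of 12 erythroid markers 5 rose and 0 fell, and their summed level was 1175 to 1548 CPM in KO-labelled and 860.8 to 979 CPM in WT libraries. Most of each sum was Car2, at 824.6 to 1105 CPM in KO-labelled and 605.9 to 723.9 CPM in WT libraries. Log2 fold changes were above 0 in 10 of the 12 and below 0 in 2, where 50.1% of all tested genes were above 0. Of 12 granulocyte and monocyte markers 1 rose and 5 fell, with sums of 3202 to 3983 CPM in KO-labelled and 4612 to 4938 CPM in WT libraries. Of 7 megakaryocyte markers 0 rose and 3 fell, with sums of 451.7 to 721.8 CPM in KO-labelled and 901.9 to 1005 CPM in WT libraries. In 2 of the 7, Pf4 and Ppbp, all KO-labelled libraries were above both WT libraries, with log2 fold changes of 0.79 and 1.46. In 3 all were below both, where 16.5% of all tested genes were higher and 16.3% lower without overlap. No marker of these lists had 0 counts in every library, and their part in the Ccnd1 and Ccnd2 results was not tested.

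The kinase partners of the D cyclins did not pass the test. Cdk4, the catalytic partner of D cyclins, was the most abundant of the 10 genes per kb, at a mean of 272 CPM per kb over all libraries. It stood at 569.4, 562.3 and 540.4 CPM in KO-labelled and 587.2 and 528.0 CPM in WT libraries. The groups overlapped fully, and the 95% interval of the fold was 0.888 to 1.12 (adjusted p = 0.999 by edgeR). With an SD of 4.22% of the mean over all 5 libraries, Cdk4 was the steadiest of the 10 genes.

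Cdk6, the second D cyclin kinase, is known for its expression in haematopoietic cells. It stood at 53.2, 111.3 and 107.6 CPM in KO-labelled and 131.5 and 117.5 CPM in WT libraries. KO-labelled library 1 had less than the other KO-labelled libraries by more than those differed from WT. The groups did not overlap, with all KO-labelled libraries lower, but the log2 fold change of -0.46 ± 0.33 (SE) had an adjusted p = 0.64 by edgeR and a 95% interval of the fold of 0.403 to 1.32. Without KO-labelled library 1 the log2 fold change was -0.19 (adjusted p = 0.259). The Cdk6 transcript is the longest of the 10, at 11525 bases in GENCODE, and KO-labelled library 1 was low for long transcripts in general. Over 261 tested genes with transcripts of 10 kb or more, its median log2 difference from the mean of the other libraries was -0.283, against 0.04 to 0.108 in the other 4 libraries. Over the 1272 genes with transcripts under 1 kb it was 0.0896. Cdk6 itself differed by -1.13 in that library, further than the median of its length class. With an offset for transcript length the Cdk6 log2 fold change was -0.34 (adjusted p = 0.507), and the part of length in it was not tested further.

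**Figure D3:**
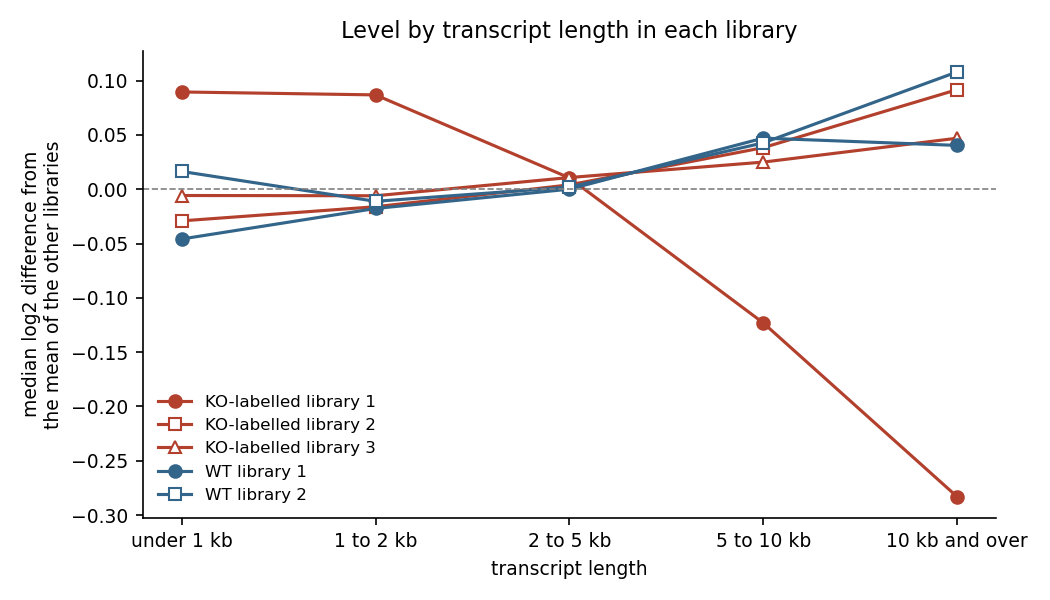
Median log2 difference of each library from the mean of the other libraries, on CPM plus 0.5, over genes grouped by transcript length; red lines are the 3 KO-labelled and blue lines the 2 WT libraries. KO-labelled library 1 runs from 0.0896 for transcripts under 1 kb to -0.283 at 10 kb and over, while the other libraries end between 0.04 and 0.108.

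Of the CIP/KIP inhibitors, Cdkn1c was lower in every KO-labelled library but did not pass the test over all genes. It stood at 13.0, 8.62 and 11.5 CPM in KO-labelled and 15.7 and 15.1 CPM in WT libraries. The WT libraries lay close together and above all KO-labelled ones, which spread more widely. The log2 fold change was -0.49 ± 0.21 (SE) with a 95% interval of -0.95 to -0.026, an unadjusted p = 0.04 and an adjusted p = 0.33 by edgeR. An unadjusted p under 0.05 was found for 13.8% of all tested genes. The adjusted p of Cdkn1c ran from 0.118 to 0.727 over 16 alternative settings, all with a negative log2 fold change. Counts behind it were 337 to 468 in KO-labelled and 471 and 592 in WT libraries, fewer than for any other of the 10 genes apart from Cdkn2d.

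Cdkn1b, the gene of p27, stood at 35.5, 34.6 and 37.6 CPM in KO-labelled and 31.9 and 36.3 CPM in WT libraries. The ranges overlapped, and the 95% interval of the fold was 0.869 to 1.28 (adjusted p = 0.861 by edgeR). Per kb, Cdkn1b had a higher mean over all libraries (14.7 CPM per kb) than Cdkn1c (6.77).

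Of the INK4 inhibitors, Cdkn2c, the gene of p18, was the better expressed. It stood at 50.3, 45.2 and 46.5 CPM in KO-labelled and 54.5 and 47.0 CPM in WT libraries, which overlapped. The 95% interval of the fold was 0.782 to 1.11 (adjusted p = 0.779 by edgeR). Cdkn2d, the gene of p19, was close to the detection limit. It had 0, 19 and 46 counts in KO-labelled and 10 and 40 counts in WT libraries, or 0, 0.486 and 1.16 CPM against 0.334 and 1.02 CPM. In KO-labelled library 1 a count of 0 allows up to 0.0831 CPM. Libraries of both groups were spread widely, and the 95% interval of the fold ran from 0.106 to 6.20, which covers a large difference in either direction (adjusted p = 0.953 by edgeR). The other INK4 genes, Cdkn2a and Cdkn2b, had CPM of 0 in every library.

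The retinoblastoma genes differed by less than the spread between libraries. Rb1, the gene of the retinoblastoma protein itself, stood at 31.1, 35.0 and 43.9 CPM in KO-labelled and 42.1 and 39.8 CPM in WT libraries. KO-labelled library 3 was the highest and KO-labelled library 1 the lowest of all, so the WT values fell within the KO-labelled range. The 95% interval of the fold was 0.716 to 1.12 (adjusted p = 0.71 by edgeR). Rbl2, the gene of p130, the family member that prevails in resting cells, stood at 182.6, 186.7 and 203.5 CPM in KO-labelled and 207.1 and 195.9 CPM in WT libraries. KO-labelled library 3 fell between the WT libraries, and the 95% interval of the fold was 0.833 to 1.08 (adjusted p = 0.76 by edgeR). Per kb, Rbl2 averaged 40.7 over all libraries, against 8.24 for Rb1.

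**Figure D4:**
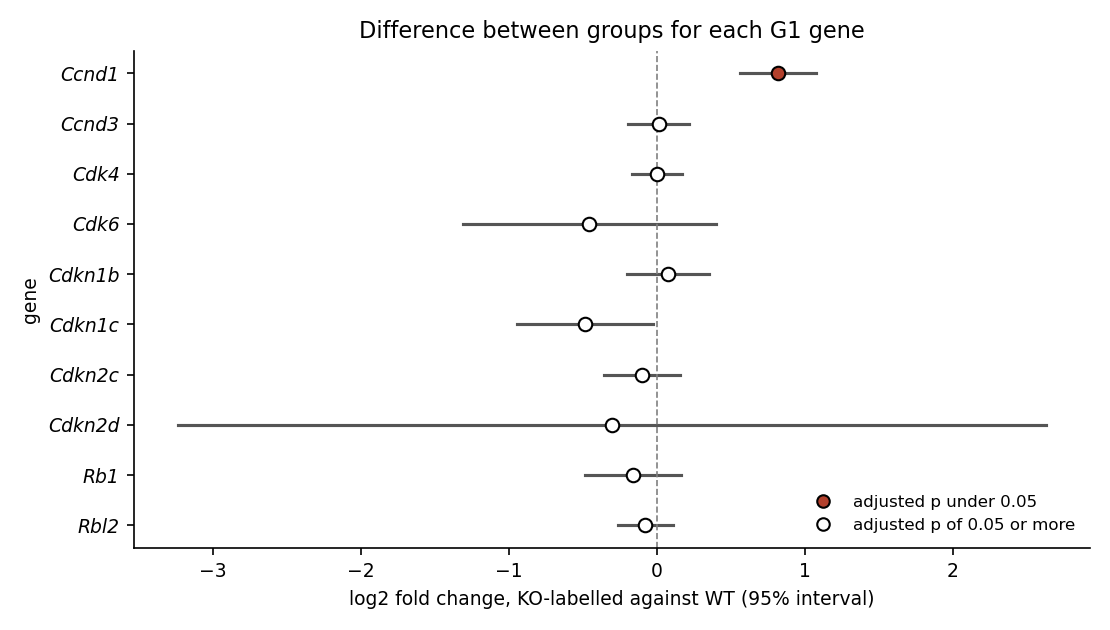
Log2 fold change of each gene, KO-labelled against WT, from edgeR, with its 95% interval as a line; filled points have an adjusted p under 0.05. The interval of Ccnd1 runs from 0.56 to 1.08, that of Cdkn1c reaches up to -0.026, and the widest interval is that of the rarely counted Cdkn2d.

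Taking the 10 genes as a list, 1 rose and 0 fell, which is 1 gene of 10 beside 1.97% of all tested genes. As the list was chosen with earlier results of these data known, this is a description and not a test. The median log2 fold change was -0.09, against 0.001 over all tested genes, with 3 genes above 0 and 7 below; of all tested genes 50.1% were above 0. The groups did not overlap for 3 of the 10, Ccnd1 higher and Cdkn1c and Cdk6 lower, while they did not overlap for 32.8% of all tested genes. Per kb, the order of the means over all libraries was Cdk4 (272), Ccnd3 (68.4), Rbl2 (40.7), Ccnd1 (32.4), Cdkn2c (19.7), Cdkn1b (14.7), Cdk6 (9.04), Rb1 (8.24), Cdkn1c (6.77) and Cdkn2d (0.423). Rbl2 and Ccnd1 stood closer in KO-labelled libraries (39.8 ± 2.31 and 39.1 ± 2.83 CPM per kb, SD, n = 3), where they did not differ beyond their spread, than in WT libraries (42.1 ± 1.65 and 22.2 ± 4.19, SD, n = 2). Cdk6 and Rb1 were also within their spread of each other, at 7.87 ± 2.82 and 7.88 ± 1.42 CPM per kb in KO-labelled libraries, and were further apart in WT libraries, at 10.8 ± 0.858 and 8.79 ± 0.338. The KO-labelled mean of Cdk6 rests on library 1, which was low for long transcripts: Cdk6 was at 4.61 CPM per kb there. In KO-labelled libraries 2 and 3 it was at 9.66 and 9.33.

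The table does not say whether counting used the strand. In GENCODE, 7 of the 10 genes share exon bases with a gene on the opposite strand, Ccnd1 among them. Its partner, annotated as LTO1, shares 1100 bases and stood at 24.2, 22.1 and 22.0 CPM in KO-labelled and 18.5 and 19.0 CPM in WT libraries (log2 fold change 0.28, adjusted p = 0.459 by edgeR). As for Ccnd1, all KO-labelled libraries were above both WT libraries, and the part of shared reads in the Ccnd1 result was not tested. No other gene of the table had counts identical to those of any of the 10, and where a gene had several transcript rows the lowest row held 86.7% or more of the counts of the highest.

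The wider pathway was described with lists of genes by role. Of 22 tested partners and regulators of the step from G1 to S phase, Ccnd2 rose and 0 fell (median log2 fold change 0.13, 16 above 0). In 12 of these 22 genes the groups did not overlap, 9 higher and 3 lower, where 16.5% of all tested genes were higher and 16.3% lower without overlap. Cdc37, a chaperone partner of CDK4 and the most abundant of the list by CPM after Ccnd2, stood at 313.8, 318.9 and 323.1 CPM in KO-labelled and 286.2 and 314.6 CPM in WT libraries (log2 fold change 0.08 ± 0.08, SE; adjusted p = 0.709).

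The other genes of that list whose groups did not overlap are given next, and were chosen after their values were seen. Both E cyclins, which activate CDK2 after the D cyclins, had log2 fold changes near that of Ccnd2. Ccne1 stood at 23.5, 19.6 and 21.0 CPM in KO-labelled and 12.8 and 15.7 CPM in WT libraries (log2 fold change 0.59 ± 0.18, SE; adjusted p = 0.133). Ccne2 stood at 42.6, 37.2 and 33.4 CPM in KO-labelled and 26.3 and 24.7 CPM in WT libraries (0.56 ± 0.14, SE; adjusted p = 0.0712), and it passed with no count filter (adjusted p = 0.0244), with DESeq2 (adjusted p = 0.0175) and with limma and sample weights (adjusted p = 0.0412). Skp2, the ubiquitin ligase subunit that marks p27 for degradation, stood at 43.1, 44.8 and 43.0 CPM in KO-labelled and 35.2 and 29.4 CPM in WT libraries (0.43 ± 0.13, SE; adjusted p = 0.128), and passed with limma and sample weights (adjusted p = 0.035).

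Ccng1, an unconventional cyclin that p53 induces, stood at 149.8, 153.0 and 145.9 CPM in KO-labelled and 122.0 and 115.8 CPM in WT libraries (log2 fold change 0.33 ± 0.09, SE; adjusted p = 0.0805). It passed with no count filter (adjusted p = 0.0483), with DESeq2 (0.0137), with limma and sample weights (0.0214), with the length offset (0.0433) and without KO-labelled library 1 (0.0215). Cdc25a, a phosphatase that activates CDK2, stood at 115.7, 130.1 and 121.7 CPM in KO-labelled and 102.5 and 101.9 CPM in WT libraries (0.26 ± 0.09, SE; adjusted p = 0.212), and passed without KO-labelled library 1 (adjusted p = 0.0431). Of the remaining genes with all KO-labelled libraries higher, Wee1, a kinase that inhibits cyclin-dependent kinases, had a log2 fold change of 0.24 ± 0.10 (SE; adjusted p = 0.279), Fbxo4, a ubiquitin ligase subunit, 0.25 ± 0.17 (adjusted p = 0.576), and Cdkn3, a phosphatase of cyclin-dependent kinases, 0.14 ± 0.18 (adjusted p = 0.81).

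In the other direction, the CIP/KIP inhibitor Cdkn1a, the gene of p21, stood at 12.1, 15.2 and 14.6 CPM in KO-labelled and 19.1 and 21.7 CPM in WT libraries (-0.55 ± 0.18, SE; adjusted p = 0.17). Ccng2, an unconventional cyclin linked to cell cycle arrest, stood at 53.9, 51.5 and 51.3 CPM in KO-labelled and 73.9 and 65.6 CPM in WT libraries (-0.42 ± 0.11, SE; adjusted p = 0.0697). It passed with no count filter, with DESeq2, with limma and sample weights and without KO-labelled library 1, at adjusted p = 0.0391, 0.0182, 0.0145 and 0.0183. Fbxw7, the ubiquitin ligase subunit that marks cyclin E for degradation, stood at 31.7, 31.2 and 36.6 CPM in KO-labelled and 44.4 and 42.3 CPM in WT libraries (-0.38 ± 0.13, SE; adjusted p = 0.182). Apart from Ccnd2, none of these genes passed edgeR's main test over all genes, and their log2 fold changes there ran from -0.55 to 0.59. Their passes named above were all in settings that changed more genes than the 287 of the main test. The length offset changed 344 genes, no count filter 455 and DESeq2 575. Limma with sample weights changed 624, and leaving out KO-labelled library 1 changed 675. In the remaining alternative settings none of these genes but Ccnd2 passed.

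E2F factors and their targets held 0 calls by edgeR. Of 10 E2F and DP genes, whose products bind DNA as pairs, 0 rose and 0 fell (median 0.08; 1 had an unadjusted p under 0.05, and DESeq2 called 1, E2f6). The most abundant by CPM were Tfdp2, at 168.3, 168.7 and 178.4 CPM in KO-labelled and 187.1 and 193.8 CPM in WT libraries, and Tfdp1, at 148.0, 150.5 and 145.3 CPM against 165.2 and 150.8 CPM. The MuvB complex forms part of the repressor of resting cells with p130, and it also joins activators. Of 7 genes of MuvB and these activators, 0 changed (median 0.12, with 2 at an unadjusted p under 0.05 and 0 by DESeq2 or limma). Rbbp4 stood at 574.1, 513.4 and 490.8 CPM in KO-labelled and 524.9 and 445.1 CPM in WT libraries, and Foxm1 at 89.7, 107.1 and 101.4 CPM against 102.5 and 87.7 CPM. Of 20 classic E2F target genes 0 changed (median 0.11; 17 above 0; 4 with an unadjusted p under 0.05, 0 by DESeq2 or limma). Over all tested genes 50.1% were above 0 and 13.8% had an unadjusted p under 0.05. In 11 of the 20 targets all KO-labelled libraries were above both WT libraries, and in 0 all were below, beside 16.5% and 16.3% of all tested genes. The summed CPM of the 20 overlapped between the groups, at 5145.8 to 5367.5 in KO-labelled and 5156.5 and 4651.2 in WT libraries. Mcm6, a subunit of the replicative helicase, stood at 1051, 1014 and 974.8 CPM in KO-labelled and 974.5 and 880.8 CPM in WT libraries. Rrm1, the large subunit of ribonucleotide reductase, stood at 676.3, 658.8 and 610.1 CPM in KO-labelled and 656.1 and 560.0 CPM in WT libraries.

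Of 20 genes that act upstream of stem cell quiescence, 0 changed (median 0.05; 2 with an unadjusted p under 0.05, 0 by DESeq2 or limma). Txnip, which restrains glucose uptake, stood at 1135, 946.9 and 926.8 CPM in KO-labelled and 977.8 and 993.2 CPM in WT libraries. Myc, a transcription factor that drives entry into the cycle, stood at 386.8, 477.2 and 448.4 CPM in KO-labelled and 374.2 and 424.8 CPM in WT libraries. The 2 genes under an unadjusted p of 0.05 were the transforming growth factor beta receptors Tgfbr1, with a log2 fold change of -0.32 ± 0.11, and Tgfbr2, with -0.26 ± 0.09 (SE). Their adjusted p-values were 0.206 and 0.21. Egr1, an immediate early transcription factor, stood at 35.7, 94.6 and 117.9 CPM in KO-labelled and 37.5 and 41.2 CPM in WT libraries. KO-labelled library 1 was the lowest of all 5, and Egr1 passed without it (log2 fold change 1.43, adjusted p = 3.49e-07) but not with it (1.07 ± 0.61, SE; adjusted p = 0.568).

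**Figure D5:**
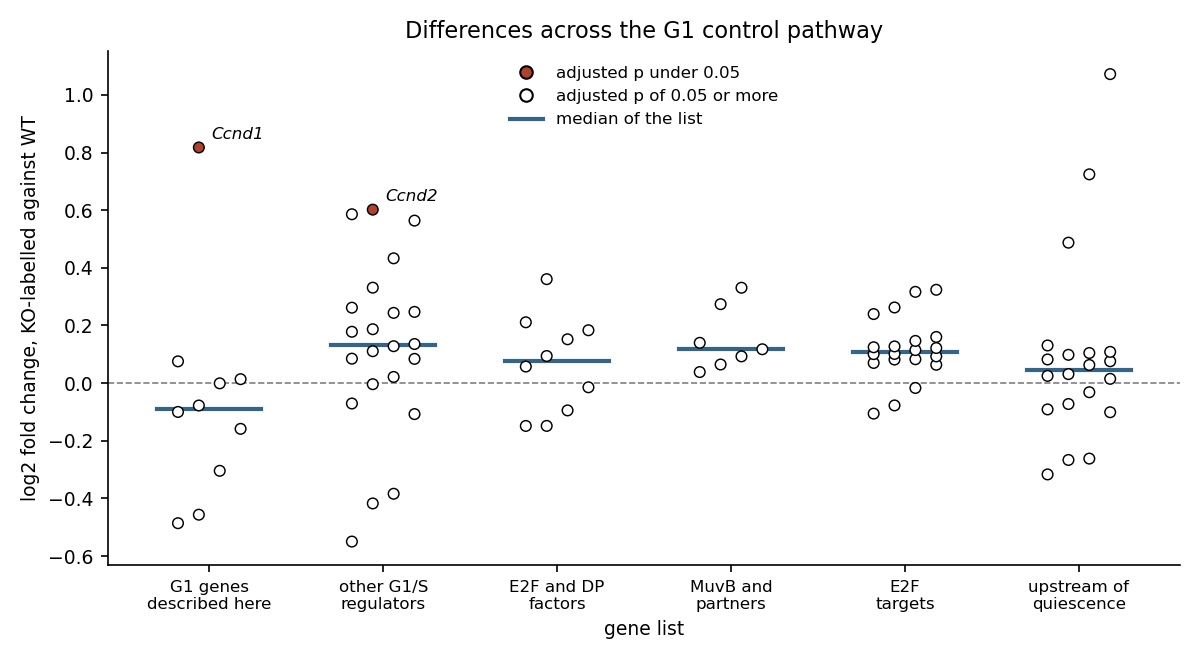
Log2 fold change of each tested gene, KO-labelled against WT, in the 10 genes described here and in 5 lists of the pathway; each point is a gene, filled points have an adjusted p under 0.05, and blue lines are list medians. Ccnd1 (0.82) and Ccnd2 (0.60) are the filled points, and the list medians lie between -0.09 and 0.13.

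E2F binding motifs mark where the retinoblastoma pathway meets its targets, so promoter windows were searched for them. The windows run from 250 bases before to 50 bases after each gene's start in RefSeq (GRCm38.p6), a later build than the mm9 of the counts. The motifs were TTTCCCGC, TTTGGCGC, TTTCGCGC and TTTGCCGC on either strand; matches may overlap, and a gene counts once. Of all 27025 genes with a window, 704 or 2.6% held a match. Of the 20 classic E2F targets 17 had a window, and 10 of these held a match, as did 4 of 8 E2F and DP genes. Windows were given for 7 of the 10 genes described here, all but Ccnd1, Cdkn1c and Rb1, and 0 of the 7 held a match, which says only that these letters are not in those windows. The stretches below show the first match, in capitals, in 3 targets of the pathway and in Rbl1, the retinoblastoma family gene of the partner list; they are written 5′ to 3′ on the strand of the gene.
Mcm6 (chr1:128359798-128359825, minus strand): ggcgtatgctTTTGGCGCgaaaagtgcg
Mcm3 (chr1:20820276-20820303, minus strand): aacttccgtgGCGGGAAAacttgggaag
Cdc6 (chr11:98908003-98908030, plus strand): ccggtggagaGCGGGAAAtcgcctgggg
Rbl1 (chr2:157204535-157204562, minus strand): agaaggcgatTTTCGCGCgctttgtcgc
In Mcm3 and Cdc6 the capitals are the motif TTTCCCGC read on the other strand. The genes beside these motifs did not pass the test in these libraries, with log2 fold changes of 0.13 in Mcm6, 0.12 in Mcm3, 0.32 in Cdc6 and 0.08 in Rbl1.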

How the data were processed

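Messenger RNA libraries of sorted LSK cells were made with a stranded kit, per the labels' protocols. The deposited table holds the authors' raw counts, 33862 transcript rows by 5 libraries. The submitters' processing notes name STAR, featureCounts, Subread 1.4.5-p1 and the build mm9 (NCBIM37). Whether strand was used, and how reads of overlapping genes were assigned, was not given in those sources. Titles set the groups; for the KO-titled libraries the genotype field says heterozygous. Counts of the deleted gene, and 1 list of markers, are not reported here.

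Symbols came from RefSeq (GRCm38.p6) for 33481 rows and GENCODE for 192; 189 rows kept their ID. The row with the most counts was kept per gene. Rows without a symbol held 0.362% to 0.459% of counts. The filter was filterByExpr and the scaling TMM, both from edgeR 4.0.16 under R 4.3.3, whose robust quasi-likelihood test was the main test (threshold 0.05). SEs are the log2 fold change over the root of the F statistic, and 95% intervals use its t quantile. The script was tested on simulated data. Alternatives were other scalings, DESeq2 1.42.0, limma 3.58.1 with voom and sample weights, other filters and rows, a length offset, leaving out single libraries and a replicate block. Transcript lengths came from GENCODE M21. Python 3.11.15 was used for summaries.

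The members and lists were chosen with earlier results of these data known. Genes chosen to be named were the 10 members, the deleted gene and, of each pathway list, up to 4 genes past the threshold or, where fewer than 2 passed, also the 2 most abundant; others were named after their values were seen.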

Additional observations from a re-analysis of the deposited data

How the results depend on the processing

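The count of changed genes moved with the libraries and the test. Against 287 changed, 115 higher and 172 lower, DESeq2 gave 575, 264 and 311; limma using sample weights gave 624, 247 and 377; without a count filter there were 455 changed and 200 higher; 190 were higher with the length offset. Leaving out single libraries gave 6 to 675 changed genes, of which 2 to 312 were higher and 4 to 363 lower. The count was 675 when KO-labelled library 1 was dropped, 135 for KO-labelled library 3, 6 for WT library 1 and 18 for WT library 2. A fit with a lone WT library borrows its spread from the KO-labelled group. Among the 10 members the count was 1, and 0 to 1 with 1 library left out, 0 being without WT library 1. The replicate numbers of the titles were tried as a block (replicate block), which left 160 changed, 54 higher and 106 lower. KO-labelled library 3 is the only library of its number, so under the block it does not enter the group difference. Libraries of the same number had deviations from their group means that correlated at 0.060 and 0.015. Those of different numbers correlated at -0.063 to 0.063. With 2 WT libraries, the values of each KO-labelled library are equal in size and opposite in sign. Nothing in the labels pairs the libraries. Under the block the log2 fold change was 0.86 for Ccnd1 (adjusted p = 0.01), -0.69 for Cdk6 (adjusted p = 0.588), -0.31 for Rb1 (adjusted p = 0.449), -0.13 for Rbl2 (adjusted p = 0.695) and -2.37 for Cdkn2d (adjusted p = 0.662), against -0.30 for Cdkn2d without it. Signs turned only in members close to 0 or barely counted: Ccnd3 was at -0.00068 with library size scaling, -0.0019 under the replicate block and -0.091 to 0.14 with 1 library left out. Cdk4 was at 0.0044 with no count filter, 0.0023 with transcript rows summed, 0.0035 with the median transcript row, 0.023 under the replicate block, 0.011 with the length offset and -0.0745 to 0.0833 with 1 library left out. With 1 library left out, Cdkn1b ran from -0.0092 to 0.17, Cdkn2c from -0.20 to 0.016 and Cdkn2d from -1.46 to 0.72; Cdkn2d could not be tested at a mean CPM of at least 1. Beyond which libraries enter the group difference in each setting, the cause of these shifts was not tested. Cdkn2d had the fewest counts of the members, 0 to 46 a library.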
